A study of Arabidopsis thaliana with 16 samples.

Results

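The WRKY transcription factors of Arabidopsis leaves were compared between plants depleted of the N-terminal acetyltransferase NatA, plants under drought and well-watered wild type. The members were given as locus identifiers, and all 53 of the loci given were measured among the 27827 genes on each array. The members, and the role classes and companion gene lists used below, were chosen with earlier results of these data known. The RefSeq table of assembly TAIR10.1 pairs each of the 53 loci with its WRKY symbol. Another 18 measured loci carry a WRKY name in that table and are not described here. Leaf RNA from 4 groups was measured on Affymetrix AraGene-1_0-st microarrays, 16 in all, with 4 biological replicates in each group. The well-watered groups were wild type, amiNaa10 and amiNaa15, and the drought group was wild type left without water for 10 days. The labels give 6 weeks on soil with 8 h of light and 16 h of darkness before the treatment, and by the methods the watered plants were harvested at the same total age as the droughted ones. All plants had the Col-0 background. In amiNaa10 and amiNaa15 an artificial microRNA against NAA10, the catalytic subunit of NatA, or NAA15, its auxiliary subunit, was expressed from the CaMV35S promoter, which is active in most tissues. The paper's account of the transcriptomes names 1 transgenic line for each microRNA. No line with an empty vector was among the groups.

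WRKY proteins bind the W-box of plant promoters through a conserved domain with a zinc finger, and they act as activators or repressors. Many of them are made within minutes of pathogen recognition and act upstream or downstream of salicylate, the hormone of defence against biotrophic pathogens. Others act in leaf senescence, phosphate starvation, heat and drought responses, or in the patterning of trichomes, seeds and stems. By published roles the members were placed in 12 genes tied to salicylate (WRKY18, WRKY28, WRKY38, WRKY40, WRKY46, WRKY50, WRKY51, WRKY53, WRKY54, WRKY60, WRKY62 and WRKY70), 15 genes with other defence roles, and 26 remaining genes, most with roles outside defence or with no assigned role. These 26, called genes outside defence below, include WRKY16 and WRKY19. Both encode an immune receptor fused to a WRKY domain and were kept apart from the 2 defence classes. By structure, 11 belong to subgroup I, 33 to the subgroups of group II, and 9 to group III (WRKY30, WRKY38, WRKY41, WRKY46, WRKY53, WRKY54, WRKY55, WRKY62 and WRKY70). Of the 9 genes of group III, 6 are also in the salicylate class.

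The labels of the arrays were checked on the targeted genes. On the log2 scale the NAA10 signal was 6.58 to 6.88 on the control arrays and 4.92 to 5.28 on the amiNaa10 arrays. Replicates 1 to 4 labelled amiNaa15 had NAA10 signals of 5.16, 5.06, 6.89 and 6.86, and NAA15 signals of 9.68, 9.54, 7.97 and 7.80. The control arrays had NAA15 signals of 9.00 to 9.20. Replicates 1 and 2 labelled amiNaa15 thus had low NAA10 and no low NAA15, against their label, and results of that group are given with all 4 arrays and without these 2. None of the 3 root hair and root epidermis markers and 3 flower markers was called in any comparison, and the mean of 5 leaf mesophyll markers was 9.39 to 9.99 on the well-watered arrays. Of 12 genes known to respond within minutes to touch and wounding, 3 were lower in amiNaa10 (ZAT10, ERF5 and SZF2), 6 on the arrays labelled amiNaa15 (ERF5, ERF6, CML38, TCH2, SZF1 and SZF2) and 6 under drought (ERF104, ERF5, ERF6, TCH4, SZF1 and SZF2). In the same order, 2.92%, 2.58% and 7.15% of all genes were called lower. The mean of the 12 genes was 5.81 to 6.72 on the control arrays, 5.43 to 5.80 in amiNaa10, 5.20 to 5.70 on the arrays labelled amiNaa15 and 4.85 to 6.02 under drought. The part of this difference between the groups in the results below was not tested.

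Values are log2 signals, quantile normalized by the authors, which gives every array an identical distribution with a median of 5.28. A gene was called where limma gave an adjusted p below 0.05 over all 27827 genes and the means differed by more than 1.5-fold, which is 0.58 on the log2 scale. Signals of different genes on an array are not comparable as levels. WRKY9, WRKY43 and WRKY72 had control means below 3, close to the bottom of the scale, where small changes are hard to measure, and none of them was called in any comparison. In bulk leaf RNA, fewer cells of a type and less RNA per cell cannot be told apart. Near-identical family members may also share probe sequence, which was not checked here.

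Under drought the WRKY genes that moved most were members of group III and of the salicylate class, and they fell. Of the 53 members, 10 were called, or 18.9%, against 13.4% of all genes. Of these, 7 were lower (13.2%, against 7.15% of all genes) and 3 were higher (5.66%, against 6.27%). All 9 genes of group III had a change below 0, with a median of -1.21 on the log2 scale, and 4 of them were called lower. In the salicylate class 11 of 12 changes lay below 0, the median was -1.02 and 5 genes were called lower. The median of all genes was 0.03, and that of the 53 members was -0.08.

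**Figure D1:**
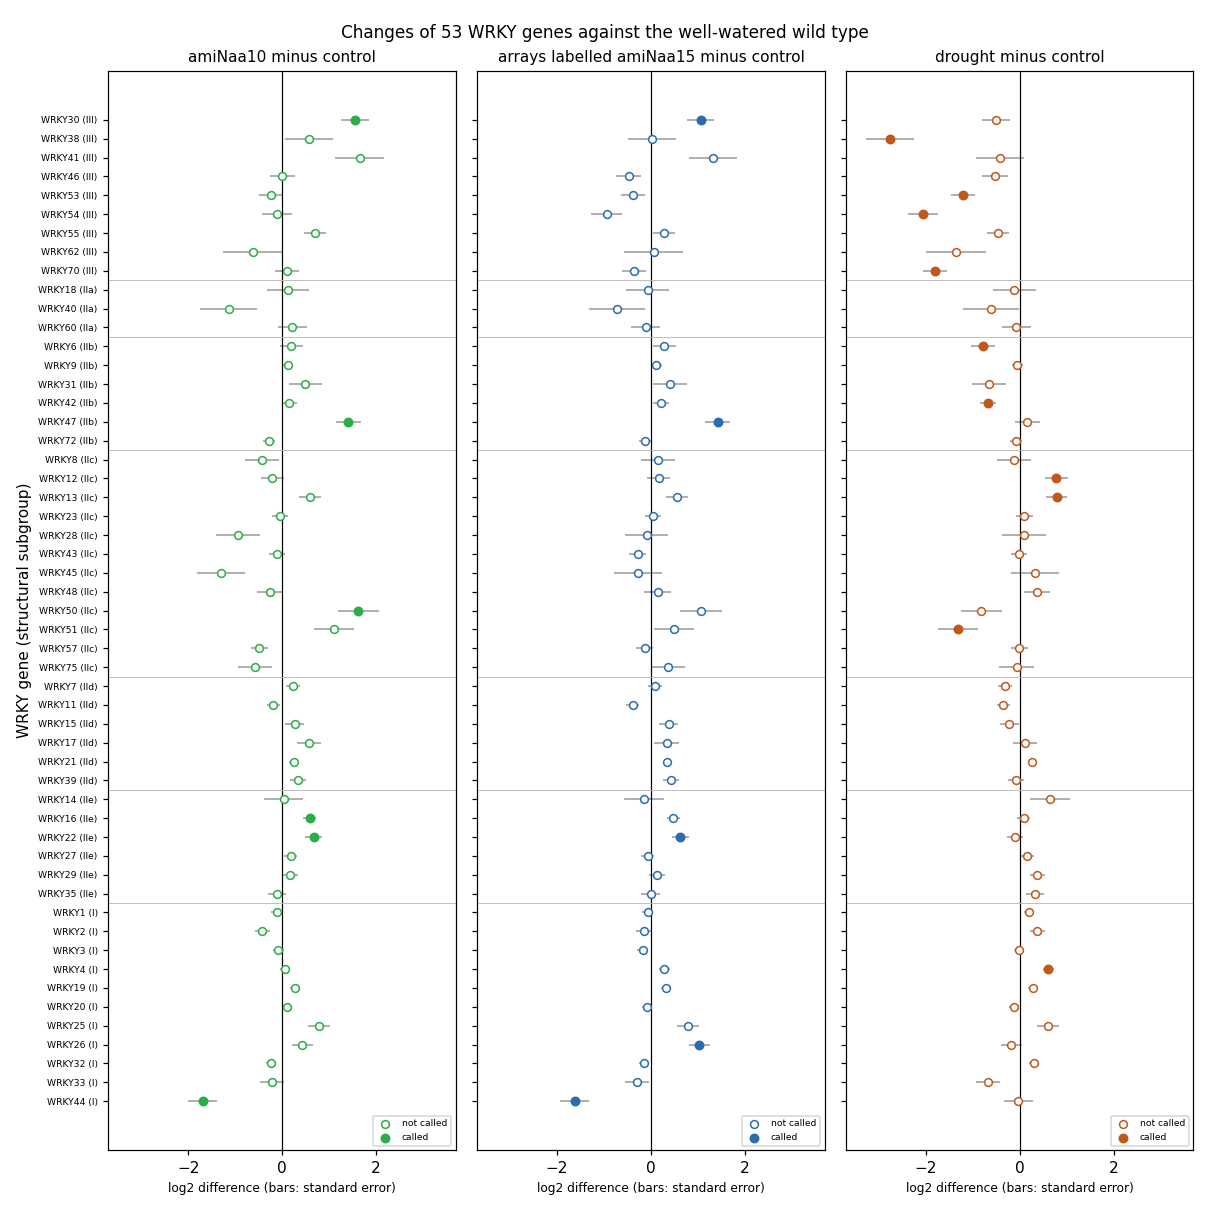
Change of each of the 53 WRKY genes against the well-watered wild type, as the difference of group means on the log2 scale (bars, standard error from limma; filled points, called), for amiNaa10, the arrays labelled amiNaa15 and drought, ordered by structural subgroup. The 9 group III genes at the top all lie left of 0 under drought, with 4 filled, whereas the filled points of both knock-down panels lie in several subgroups.

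WRKY38 (AT5G22570), a negative regulator of basal defence, had signals of 5.59, 7.46, 7.00 and 8.25 on control replicates 1 to 4 and of 3.60, 3.73, 5.78 and 4.11 under drought. Only drought replicate 3 reached the lowest control array. WRKY38 fell by 2.77 (SE 0.51, adjusted p = 0.00114, limma), the widest change of the family in this comparison. WRKY54 (AT2G40750) and WRKY70 (AT3G56400) are a closely related pair that restrains salicylate synthesis and leaf senescence. WRKY54 gave 7.93, 8.96, 8.14 and 9.33 in the controls and 5.63, 6.43, 7.41 and 6.63 under drought, and it fell by 2.07 (SE 0.33, adjusted p = 0.000366). WRKY70 gave 11.03, 11.72, 11.09 and 11.85 in the controls and 8.76, 9.63, 10.24 and 9.79 under drought, and it fell by 1.82 (SE 0.25, adjusted p = 0.000152). For both genes every drought array lay below every control array, and in both drought replicate 3 was the highest of its group. WRKY53 (AT4G23810), which promotes senescence, had 6.88, 6.74, 6.69 and 7.61 in the controls and 5.36, 6.17, 6.39 and 5.16 under drought. Its groups were separate too, with a fall by 1.21 (SE 0.26, adjusted p = 0.00282). These 4 genes stayed called whichever of the 16 arrays was left out.

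WRKY51 (AT5G64810), which with WRKY50 mediates salicylate repression of jasmonate signalling, spanned 4.15 to 6.44 in the controls, with 4.15, 5.55, 4.71 and 6.44 in replicates 1 to 4. Under drought it stood at 3.69, 3.85, 4.24 and 3.74. Drought replicate 3 lay just above control replicate 1, and the fall by 1.33 (SE 0.43, adjusted p = 0.0321) was lost without any 1 of control replicates 2 or 4 or drought replicates 1, 2 or 4, with an adjusted p of up to 0.104. WRKY50 differed by -0.82 (SE 0.44) and was not called (adjusted p = 0.201). WRKY62, the partner of WRKY38, differed by -1.36 with an SE of 0.63, and its adjusted p was 0.133. WRKY62 had 3.35, 3.45 and 3.23 on drought replicates 1, 2 and 4 but 6.00 on replicate 3, and its controls ran from 3.48 to 6.49. The remaining group III genes WRKY30, WRKY41, WRKY46 and WRKY55 had differences between -0.53 and -0.42 and were not called.

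**Figure D2:**
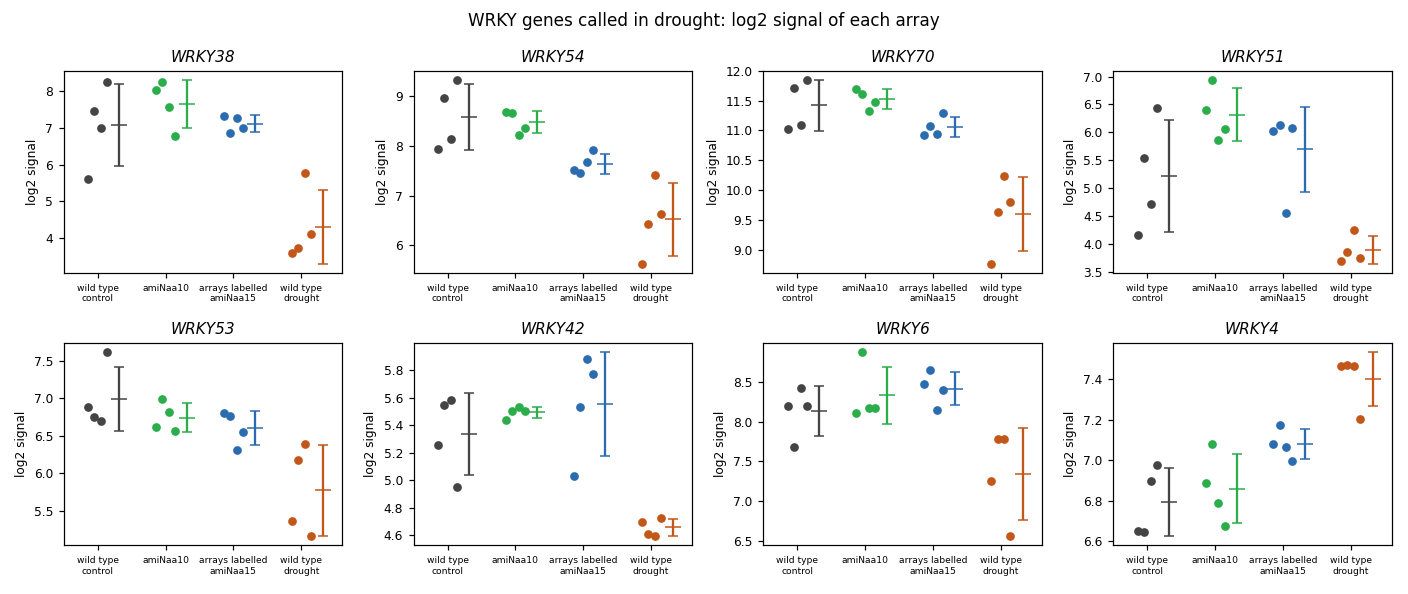
Log2 signal of each array for 8 of the 10 WRKY genes called under drought (points, arrays in replicate order; lines, group mean with SD, n = 4 per group). WRKY54, WRKY70, WRKY53 and WRKY42 separate drought from control below and WRKY4 above, while WRKY38, WRKY51 and WRKY6 overlap the control.

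The salicylate class was not uniform. WRKY18, WRKY40 and WRKY60, partly redundant genes of subgroup IIa that act in defence and abscisic acid responses, differed by -0.12, -0.62 and -0.08 with no adjusted p below 0.518. WRKY40 had signals of 7.62, 8.13, 10.34 and 5.93 on drought replicates 1 to 4, against 8.19 to 9.30 in the controls, so the drought arrays fell on both sides of them. WRKY28, an activator of the salicylate synthesis gene ICS1, differed by 0.09 (95% interval -0.91 to 1.09) and was the only gene of its class above 0, although it lay below 0 without drought replicate 3. The mean of the 12 genes was 5.35, 5.77, 6.86 and 5.17 on drought replicates 1 to 4 and 6.26, 6.82, 6.79 and 7.49 on the control replicates. Drought replicate 3 therefore stood within the control range for this class, and without it the median change of the 12 genes was -1.41, beside -1.02 with all arrays. Drought replicate 3 also had the lowest mesophyll mean (8.56, against 9.28 to 9.53 on the other drought arrays) and the highest mean of senescence markers (7.89, against 6.50 to 7.59). Whether those differences contributed to its WRKY signals was not tested. Without control replicate 4, the control array with the highest mean of the 12 genes, their median change was -0.70.

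Of the 15 other defence genes of the family, 1 was called higher under drought (6.67%, against 6.27% of all genes) and 0 lower (against 7.15% of all genes), counts near those of all genes. In this class 9 genes lay below 0, and the median was -0.08. WRKY4 (AT1G13960), required with WRKY3 for resistance to necrotrophic fungi, gave 6.65, 6.65, 6.90 and 6.98 in the controls and 7.46, 7.47, 7.46 and 7.20 under drought. Every drought array was above every control array, and WRKY4 rose by 0.61 (SE 0.11, adjusted p = 0.00113). Because 0.61 is close to the 1.5-fold minimum, the call was lost without any 1 of 5 arrays although its adjusted p stayed at or below 0.00510. WRKY33 (AT2G38470), the regulator of camalexin synthesis and necrotroph resistance, had 11.24, 11.41, 10.80 and 11.70 in the controls and 9.71, 10.80, 11.30 and 10.62 under drought. Its difference of -0.68 (SE 0.26) was not called (adjusted p = 0.0725). WRKY25, a heat response gene, differed by 0.60 and was not called (adjusted p = 0.0789), nor were WRKY22 and WRKY29, which act below flagellin recognition, at -0.10 and 0.37.

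Of the 26 genes outside defence, 2 were higher and 2 lower, 7.69% each, near the 6.27% and 7.15% of all genes, and the median was 0.03. The lower genes were WRKY6 and WRKY42, of subgroup IIb, both regulators of phosphate homeostasis. WRKY42 (AT4G04450) gave 5.26, 5.55, 5.58 and 4.95 in the controls and a narrow 4.70, 4.61, 4.60 and 4.73 under drought. The groups did not overlap, and it fell by 0.68 (SE 0.16, adjusted p = 0.00695) and stayed called whichever array was left out. WRKY6 (AT1G62300), which also acts in senescence, had 8.20, 7.68, 8.43 and 8.20 in the controls and 7.25, 7.78, 7.78 and 6.56 under drought, with overlap between control replicate 2 and drought replicates 2 and 3. WRKY6 fell by 0.79 (SE 0.25, adjusted p = 0.0312), a call lost without any 1 of 5 arrays (adjusted p up to 0.0937). The higher genes were WRKY12 and WRKY13, which act in opposite directions on flowering in short days and also in stem tissue. WRKY12 (AT2G44745) rose by 0.77 (SE 0.25, adjusted p = 0.0302) and WRKY13 (AT4G39410) by 0.78 (SE 0.23, adjusted p = 0.0208). Both overlapped the controls, with WRKY12 at 3.69 to 4.32 in the controls and 4.03 to 5.17 under drought, and WRKY13 at 5.18 to 6.40 and 6.28 to 6.84. Both calls were lost without control replicate 1, control replicate 4 or drought replicate 2. That of WRKY12 was also lost without drought replicate 3 or 4. The adjusted p from limma then reached 0.0880 for WRKY12 and 0.0721 for WRKY13. Arrays of the 2 groups did not overlap for 8 members, or 15.1%, against 24.8% of all genes.

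The companion genes of salicylate signalling were lower under drought as well. Of 14 pathway genes 8 were called lower (57.1%, against 7.15% of all genes) and 0 higher (against 6.27%), with a median of -0.93. They were ICS1, PBS3, EDS1, PAD4, NPR4, CBP60g, PR1 and PR5, which span salicylate synthesis, its regulators, a receptor and the output genes. PR1, an antimicrobial output gene, fell by 2.91 (SE 0.69, adjusted p = 0.00574) and PBS3, which acts in salicylate synthesis, by 1.36 (SE 0.25, adjusted p = 0.00117). The mean of the 14 genes was 5.57 to 6.16 under drought and 6.39 to 7.51 in the controls, so drought replicate 3, at 6.16, was below all controls here. Of 4 senescence markers 3 were higher (75%, against 6.27% of all genes), namely SAG12, NAP and ORE1. Of 6 abscisic acid and drought markers 4 were higher (66.7%, against 6.27% of all genes), namely RD29A, RAB18, NCED3 and LTI30. In the mesophyll list LHCB1.3 fell by 0.67 and CA1 by 1.67, and the list averaged 8.56 to 9.53 under drought against 9.68 to 9.99 in the controls. The part of a changed leaf composition in the WRKY values was not tested. Of 12 genes of pattern recognition and MAP kinase signalling only the flagellin receptor FLS2 was called, and it rose by 1.10 (adjusted p = 0.000533). That is 8.33% of the list called higher, near the 6.27% of all genes. Of 6 VQ proteins, which bind WRKY factors, VQ10 was called (16.7%, against 7.15% of all genes called lower), and it fell by 1.39 (adjusted p = 0.00574).

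**Figure D3:**
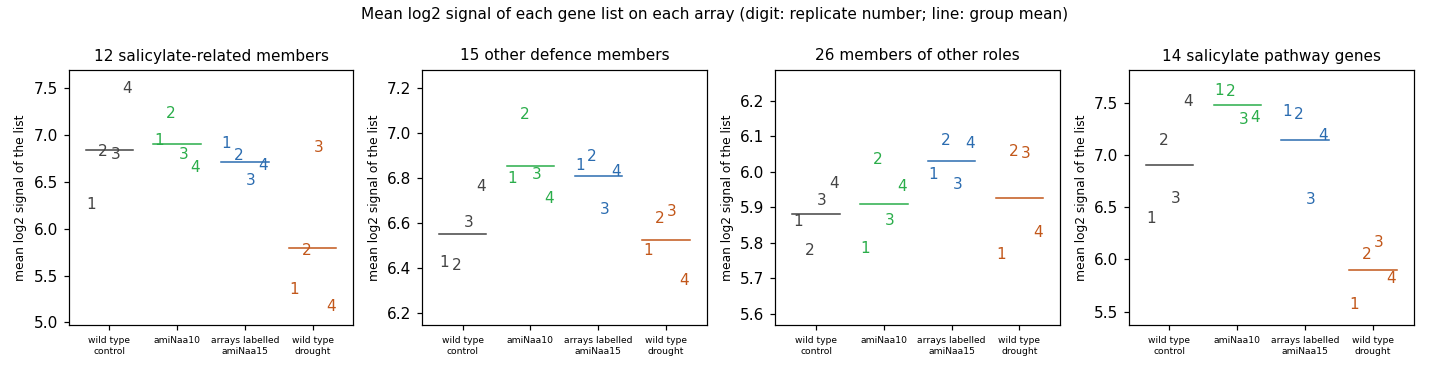
Mean log2 signal on each array of the 12 salicylate-related members, the 15 other defence members, the 26 remaining members and 14 salicylate pathway genes (digits, replicate numbers; lines, group means; each panel has its own vertical range). In the first panel drought replicates 1, 2 and 4 lie between 5.17 and 5.77 and replicate 3 at 6.86, and in the fourth all drought arrays lie below all control arrays.

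In each knock-down fewer WRKY genes were called than under drought, and most of the called members rose. Fewer of all genes were called as well, with 13.4% called under drought. In amiNaa10, 6 of the 53 members were called, or 11.3%, against 5.37% of all genes. Of these, 5 were higher (9.43%, against 2.45% of all genes) and 1 was lower (1.89%, against 2.92%). On the arrays labelled amiNaa15, 5 members were called, or 9.43%, against 4.67% of all genes, with 4 higher (7.55%, against 2.09%) and 1 lower (1.89%, against 2.58%). Groups did not overlap for 9 members in amiNaa10 (17.0%, against 16.0% of all genes) and for 8 in the arrays labelled amiNaa15 (15.1%, against 15.0%), shares near those of all genes. With p left unadjusted, 12 members passed in amiNaa10, against 8.62% of all genes, and 9, against 7.82%, on the arrays labelled amiNaa15. Both comparisons use the same 4 control arrays, so their values are given side by side and are not independent.

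WRKY44 (AT2G37260), also known as TTG2, a regulator of trichome and seed coat development, was the member that fell. It gave 7.42, 6.51, 7.67 and 7.40 on control replicates 1 to 4, 5.48, 5.03, 6.17 and 5.56 in amiNaa10, and 4.99, 5.20, 6.50 and 5.82 on the arrays labelled amiNaa15. All knock-down arrays were below all control arrays, although replicate 3 labelled amiNaa15, at 6.50, lay next to control replicate 2, at 6.51. WRKY44 fell by 1.69 (SE 0.31, adjusted p = 0.00771) in amiNaa10 and by 1.62 (SE 0.31, adjusted p = 0.00631) in the arrays labelled amiNaa15. The drought arrays, at 7.14, 7.34, 7.08 and 7.30, lay within the control range, with a difference of -0.03 (95% interval -0.71 to 0.64).

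WRKY47 (AT4G01720), of subgroup IIb, rose in both. Its signals were 7.28, 7.14, 7.36 and 7.42 in the controls, 8.45, 9.46, 8.58 and 8.37 in amiNaa10, and 9.19, 9.16, 8.12 and 8.42 on the arrays labelled amiNaa15. The lowest knock-down array exceeded the highest control array, and the rise was 1.41 (SE 0.27, adjusted p = 0.00884) and 1.42 (SE 0.27, adjusted p = 0.00601). WRKY30 (AT5G24110), a group III gene induced by reactive oxygen species and pathogens, gave 5.46, 5.09, 5.08 and 5.66 in the controls, 7.16, 7.50, 6.54 and 6.33 in amiNaa10, and 7.09, 6.74, 5.66 and 6.02 on the arrays labelled amiNaa15. WRKY30 rose by 1.56 (SE 0.30, adjusted p = 0.00884) and by 1.06 (SE 0.30, adjusted p = 0.0399). Replicate 3 labelled amiNaa15 stood at the level of the highest control, and that call was lost without any 1 of 5 arrays (adjusted p up to 0.132), whereas the amiNaa10 call held whichever array was left out. WRKY22 (AT4G01250), which acts below the flagellin MAP kinase cascade, gave 6.20, 5.91, 5.76 and 5.93 in the controls, 6.49, 6.86, 6.46 and 6.69 in amiNaa10, and 6.40, 6.70, 6.32 and 6.89 on the arrays labelled amiNaa15. Neither knock-down overlapped the controls, and WRKY22 rose by 0.67 (SE 0.18, adjusted p = 0.0296) and by 0.63 (SE 0.18, adjusted p = 0.0393), but each call was lost without any 1 of 6 arrays, with an adjusted p of up to 0.104 and 0.119.

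**Figure D4:**
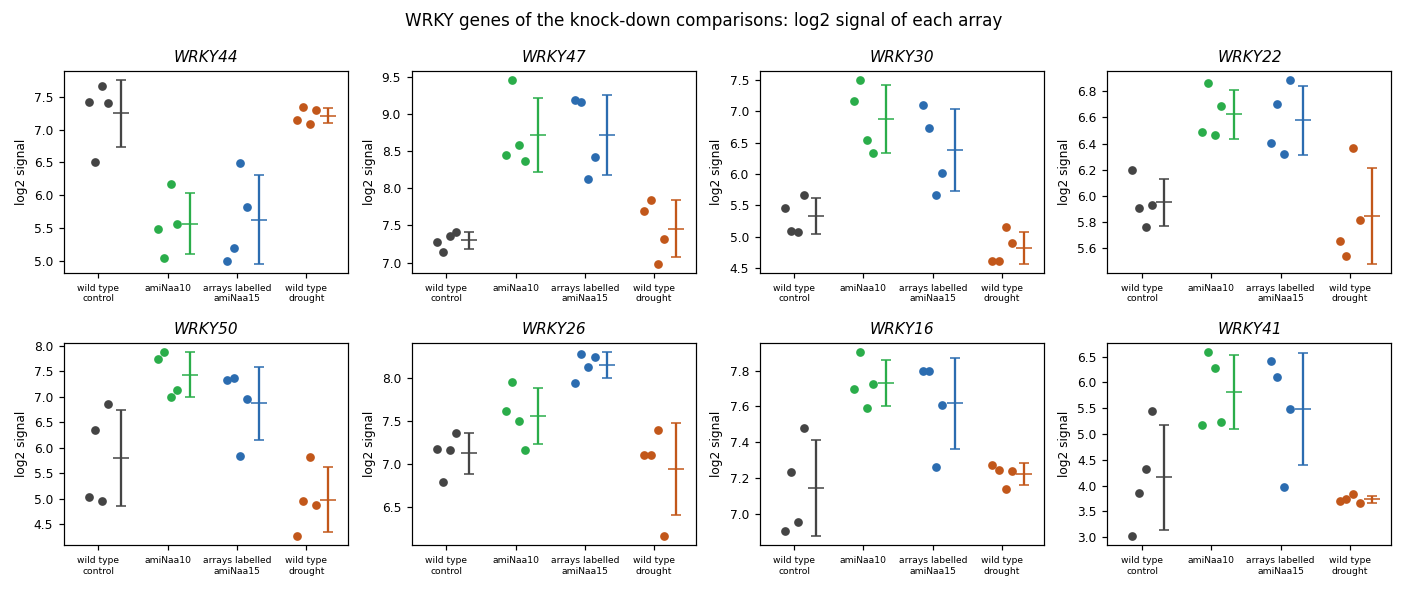
Log2 signal of each array for 8 WRKY genes of the knock-down comparisons (points, arrays in replicate order; lines, group mean with SD, n = 4 per group). WRKY44 is low and WRKY47, WRKY30 and WRKY22 are high in both knock-down groups, and replicate 3 labelled amiNaa15 is the lowest of its group for WRKY50, WRKY16 and WRKY41.

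The remaining calls came from 1 of the knock-downs each. WRKY50 (AT5G26170) gave 5.04, 6.35, 4.96 and 6.85 in the controls and 7.74, 7.87, 6.99 and 7.13 in amiNaa10, where it rose by 1.63 (SE 0.44, adjusted p = 0.0349). On the arrays labelled amiNaa15 it gave 7.32, 7.38, 5.83 and 6.96, and its difference of 1.07 was not called (adjusted p = 0.151). Its controls thus spanned 4.96 to 6.85, and the amiNaa10 call was lost without any 1 of 5 arrays (adjusted p up to 0.114). WRKY16 (AT5G45050), also called TTR1, encodes an immune receptor fused to a WRKY domain. WRKY16 was 6.90, 7.23, 6.95 and 7.48 in the controls and 7.70, 7.90, 7.59 and 7.73 in amiNaa10, a rise by 0.59 (SE 0.14, adjusted p = 0.0214) that lies close to the 1.5-fold minimum and was lost without any 1 of 4 arrays. On the arrays labelled amiNaa15 it differed by 0.47 (adjusted p = 0.0517). WRKY26 (AT5G07100), which acts with WRKY25 and WRKY33 in heat tolerance, gave 7.18, 6.79, 7.17 and 7.36 in the controls and 7.95, 8.29, 8.13 and 8.24 on the arrays labelled amiNaa15. The groups did not overlap, and WRKY26 rose by 1.03 (SE 0.22, adjusted p = 0.0122) and stayed called whichever array was left out. In amiNaa10 it stood at 7.61, 7.95, 7.50 and 7.17, with a difference of 0.43 (adjusted p = 0.254).

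Several genes, of the defence classes and outside them, differed in a knock-down without being called. WRKY41 (AT4G11070), of group III, was 3.02, 3.85, 4.33 and 5.44 in the controls, 5.17, 6.58, 6.28 and 5.22 in amiNaa10, and 6.41, 6.10, 3.97 and 5.48 on the arrays labelled amiNaa15. Its differences of 1.65 (SE 0.52, adjusted p = 0.0596) and 1.33 (SE 0.52, adjusted p = 0.126) were not called, and the controls alone spanned more than either difference. WRKY25 differed by 0.80 and 0.78, with adjusted p of 0.0508 and 0.0557. WRKY55, a group III gene counted outside defence, differed by 0.70 in amiNaa10 (adjusted p = 0.0772). WRKY51, at 6.40, 6.94, 5.86 and 6.05 in amiNaa10, differed by 1.10 (adjusted p = 0.123, limma). Outside defence, WRKY45 was 7.14, 5.66, 7.32 and 6.86 in the controls and 4.94, 5.82, 5.24 and 5.79 in amiNaa10. Its difference of -1.30 was not called (adjusted p = 0.130, limma), nor was that of WRKY13, at 0.60 (adjusted p = 0.121). WRKY54 had 7.51, 7.47, 7.69 and 7.92 on the arrays labelled amiNaa15, all below the lowest control of 7.93, and a difference of -0.94 (SE 0.33, adjusted p = 0.0887). WRKY40 had 7.71, 7.50, 7.39 and 7.36 in amiNaa10, all below the lowest control of 8.19, and a difference of -1.13 with an SE of 0.60 that was not called (adjusted p = 0.270). WRKY40 is itself a gene of the rapid response to wounding.

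The salicylate class as a whole had no common direction in the knock-downs. In amiNaa10, 7 of the 12 genes lay above 0 and 5 below, with a median of 0.06 and 1 call. On the arrays labelled amiNaa15, 4 lay above 0 and 8 below, with a median of -0.10 and no call, although 0 calls at this spread does not show that the levels were alike. For WRKY38 the 95% interval of the difference was -0.55 to 1.69 in amiNaa10 and -1.09 to 1.15 in the arrays labelled amiNaa15. For WRKY70 it was -0.45 to 0.65 and -0.91 to 0.19. The 15 other defence genes had medians of 0.17 and 0.14 with 2 called higher in each, and the 26 genes outside defence had medians of 0.11 and 0.19 with 2 called higher and 1 lower in each. Of the 2 higher genes outside defence in amiNaa10, 1 was WRKY16, the immune receptor fusion. Medians of all genes were 0.02 and 0.01, with 2.45% and 2.09% of them called higher and 2.92% and 2.58% called lower. Of the 14 salicylate pathway genes, EDS1, a hub of receptor signalling, was called in amiNaa10, where it rose by 0.79 (adjusted p = 0.0419), and none was called on the arrays labelled amiNaa15. This list had 12 genes above 0 and 2 below in amiNaa10 (median 0.36). The amiNaa15 label gave 10 above and 4 below (median 0.20). PR1 was not called, although its amiNaa10 signals of 8.03 to 9.74 lay above the controls, at 5.25 to 7.53. The mean of the 14 genes was 7.34 to 7.62 in amiNaa10, 6.57 to 7.42 under the amiNaa15 label and 6.39 to 7.51 in the controls, with overlap. Of the 12 genes of pattern recognition and MAP kinase signalling, amiNaa10 had 1 call and the arrays labelled amiNaa15 had 2. FLS2 rose by 0.70 (adjusted p = 0.0314) and 1.03 (adjusted p = 0.00434) in these groups, and FRK1, a receptor kinase gene induced by flagellin, rose by 1.26 (adjusted p = 0.0370) on the arrays labelled amiNaa15. Of the 6 abscisic acid and drought markers, 5 lay below 0 in each group, with medians of -0.89 and -0.68. RD29A was called lower in both, at -1.98 (adjusted p = 0.00634) and -1.77 (adjusted p = 0.00691), and RAB18 on the arrays labelled amiNaa15, at -1.23 (adjusted p = 0.0396). Of the 6 VQ genes, SIB1 and SIB2 fell on the arrays labelled amiNaa15, by 0.60 (adjusted p = 0.0495) and 0.92 (adjusted p = 0.0399), and no VQ gene was called in amiNaa10.

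With replicates 1 and 2 labelled amiNaa15 left out, no WRKY gene was called in that group against the control, and 0.388% of all genes were. The differences were then 0.65 for WRKY22 (adjusted p = 0.225), 1.06 for WRKY26 (adjusted p = 0.127), 0.52 for WRKY30 (adjusted p = 0.486), -1.09 for WRKY44 (adjusted p = 0.153) and 0.97 for WRKY47 (adjusted p = 0.150), all in the direction seen with 4 arrays. Only 2 arrays then stood against 4. With replicates 3 and 4 left out instead, 8 WRKY genes and 7.36% of all genes were called, and the same differences were 0.60, 0.99, 1.59, -2.15 and 1.87. The changes of WRKY22 and WRKY26 were thus similar in both pairs of arrays, and those of WRKY30, WRKY44 and WRKY47 were greater in replicates 1 and 2, the pair with low NAA10. The difference between the pairs was not tested.

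When the knock-downs were set directly against drought, more members were called than against the control. The direct comparison tests whether the change in a knock-down differed from that under drought, since the control cancels. In amiNaa10, 18 members were called (34.0%, against 17.3% of all genes), with 14 higher than under drought (26.4%, against 9.11%) and 4 lower (7.55%, against 8.17%). On the arrays labelled amiNaa15, 17 were called (32.1%, against 13.7% of all genes), with 16 higher (30.2%, against 7.14%) and 1 lower (1.89%, against 6.57%). Both comparisons share the 4 drought arrays. Arrays did not overlap for 19 members (35.8%, against 27.9% of all genes) in amiNaa10 and for 16 (30.2%, against 23.8%) in the arrays labelled amiNaa15. In each of them 7 of the 9 group III genes were higher than under drought and 2, WRKY46 and WRKY62, were not called. The median of group III was 1.92 in amiNaa10 and 1.42 in the arrays labelled amiNaa15, beside -0.02 and -0.01 for all genes. In each, 6 of the 12 salicylate genes and 3 of the 15 other defence genes were called, all higher. Of the 26 genes outside defence, 5 were higher and 4 lower in amiNaa10, and 7 were higher and 1 lower in the arrays labelled amiNaa15.

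WRKY38 differed most from drought, by 3.34 in amiNaa10 (SE 0.51, adjusted p = 0.000184) and by 2.80 in the arrays labelled amiNaa15 (SE 0.51, adjusted p = 0.00105). It had 8.02, 8.24, 7.56 and 6.78 in amiNaa10 and 7.33, 6.84, 7.25 and 7.00 on the arrays labelled amiNaa15, all above the highest drought array of 5.78. WRKY50 was higher by 2.45 and 1.89, and WRKY51 by 2.43 and 1.81, with adjusted p of 0.00601 or less. For these 2 genes the drought and knock-down changes had opposite signs, although neither WRKY50 under drought nor WRKY51 in a knock-down was called against the control. WRKY30 was higher by 2.07 and 1.56 and WRKY41 by 2.08 and 1.75. WRKY70 was higher by 1.92 and 1.46 and WRKY54 by 1.96 and 1.12. WRKY53 was higher by 0.97 and 0.83 and WRKY55, the chromosomal neighbour of WRKY54, by 1.17 and 0.74.

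Outside group III and the salicylate class, 4 of the 6 genes of subgroup IIb were called higher than under drought in each knock-down (66.7%, against 9.11% and 7.14% of all genes). These were WRKY47 (by 1.26 and 1.26), WRKY6 (by 0.99 and 1.07), WRKY31 (by 1.16 and 1.07) and WRKY42 (by 0.84 and 0.89). WRKY22 was higher by 0.78 and 0.73. WRKY15, which acts in osmotic stress responses, and WRKY26 were called only on the arrays labelled amiNaa15, by 0.61 (adjusted p = 0.0400) and 1.21 (adjusted p = 0.00114), and they differed by 0.51 (adjusted p = 0.0756) and 0.61 (adjusted p = 0.0513) in amiNaa10. WRKY44 was lower than under drought by 1.65 and 1.59. In amiNaa10, WRKY2, a gene of pollen and early embryo development, was lower by 0.79 (adjusted p = 0.00164), WRKY12 by 0.98 (adjusted p = 0.00664) and WRKY45, a gene of phosphate uptake and senescence, by 1.61 (adjusted p = 0.0269). The last of these calls was lost without any 1 of 5 arrays, and that of WRKY31 in amiNaa10 without any 1 of 4. On the arrays labelled amiNaa15 the calls of WRKY15, WRKY31, WRKY41, WRKY53, WRKY54 and WRKY55 were each lost without at least 1 array.

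Without replicates 1 and 2 labelled amiNaa15, 7 members were still called against drought, and 9.57% of all genes. WRKY38 was then higher by 2.82 (adjusted p = 0.0151), WRKY70 by 1.52 (adjusted p = 0.00971), WRKY26 by 1.24 (adjusted p = 0.0133), WRKY42 by 1.17 (adjusted p = 0.000562), WRKY30 by 1.02 (adjusted p = 0.0355) and WRKY22 by 0.76 (adjusted p = 0.0421), and WRKY44 differed by -1.06 (adjusted p = 0.0460). WRKY54, at 1.28, was not called (adjusted p = 0.0656).

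Set against each other, amiNaa10 and the arrays labelled amiNaa15 gave no call by limma in any member, and 0.00% of all genes were called. For 6 members (11.3%, against 4.93% of all genes) the arrays of these groups did not overlap. Before adjustment, 3 members and 1.29% of all genes had p below 0.05 and passed the fold minimum. They were WRKY54, higher in amiNaa10 by 0.84 (SE 0.33, adjusted p = 0.658), WRKY26, lower by 0.60 (SE 0.22, adjusted p = 0.642), and WRKY75, a phosphate starvation gene, lower by 0.94 (SE 0.37, adjusted p = 0.666). Since replicates 1 and 2 labelled amiNaa15 had low NAA10, this comparison does not set NAA10 depletion cleanly against NAA15 depletion.

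The salicylate class was also the most variable between replicates. The pooled SD within groups had a median of 0.70 over these 12 genes, 0.26 over the 15 other defence genes, 0.29 over the 26 genes outside defence and 0.23 over all genes. WRKY62 had an SD of 1.02 and WRKY40 of 0.97, and WRKY41, outside the class, had 0.83. At the other end, WRKY21 had an SD of 0.11 and WRKY32 of 0.12. The spread sets what could be called. The standard error of a difference ranged from 0.10 to 0.63 over the 53 members with a median of 0.24, so a difference of 0.6 was resolved for WRKY4 or WRKY16 but not for WRKY40 or WRKY62. The reverse case was WRKY32, a gene of subgroup I, which gave 7.33, 7.03, 7.28 and 7.10 in the controls and 7.37, 7.49, 7.58 and 7.49 under drought. No arrays overlapped and its adjusted p was 0.0443, but the difference of 0.29 was below the 1.5-fold minimum. WRKY21 likewise differed by 0.34 on the arrays labelled amiNaa15 (adjusted p = 0.0384) without reaching the minimum.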

How the data were processed

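The authors deposited log2 signals per gene for the 16 arrays. By the methods and the submitters' processing notes they were made by RMA background correction and quantile normalization using a custom chip definition built on TAIR genes, whose TAIR release is not given in the sources used here, so no coordinates are printed. Scanner files were not used here. Groups and replicate numbers came from the sample labels. Nothing beyond the words "biological rep" describes what separated the replicates, and p-values measure the spread between these arrays.

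The deposited log2 values of all 27827 genes were fitted in a single model of 4 group means, which leaves 12 residual degrees of freedom, in limma 3.58.1 under R 4.3.3, with moderated variances, two-sided tests and Benjamini-Hochberg adjustment over all genes of each comparison. A call needed an adjusted p below 0.05 and a difference above 1.5-fold. The fit was tested on simulated data. The precision is limited by the 4 arrays per group. Intervals are 95% intervals from the moderated standard error. Tables and figures used Python 3.11.15, pandas 2.3.3 and matplotlib 3.10.9.

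The members, their role classes and the companion gene lists were chosen with earlier results of these data known. Named were every member called in a comparison, uncalled defence members where classes are compared, and companion genes that were called against the control. All array values are given for many, but not all, named members whose arrays did not overlap the control or whose change passed 1 log2 unit. Left out are, among others, WRKY2 under drought and WRKY4 on the arrays labelled amiNaa15, neither of which overlapped the control. Companion genes called only between the knock-downs and drought are not named. WRKY9, WRKY21, WRKY32, WRKY43 and WRKY75 are named beyond that for single values, chosen after their values were seen. Of 76 companion genes 73 matched by symbol and locus in RefSeq (TAIR10.1). No sequences were used here. The alternatives were no variance moderation, unadjusted p, no fold minimum, limma's treat, the replicate number as a block, only the 2 groups compared, a filter on the 25% lowest genes, cyclic loess, median centring, array weights, each array left out, and pairs of arrays labelled amiNaa15 left out.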

Additional observations from a re-analysis of the deposited data

Results flagged for a closer look

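Among the 23 WRKY members called in any comparison, 92 groups of 4 arrays were looked at, and in 5 of them 1 array stood apart from the other three by Dixon's criterion. Chance alone gives about 1 in 20. WRKY2 was 7.52 on amiNaa10 replicate 3, with the nearest other array at 6.90. WRKY4 was 7.20 on drought replicate 4, with the nearest at 7.46. WRKY6 was 8.87 on amiNaa10 replicate 2, with the nearest at 8.17. WRKY12 was 4.30 on amiNaa10 replicate 4, with the nearest at 3.69. WRKY51 was 4.56 on replicate 3 labelled amiNaa15, with the nearest at 6.02. That array was also the lowest of its group for WRKY16, WRKY22, WRKY30, WRKY41, WRKY47 and WRKY50, among others, and the highest for WRKY44. Its mean of senescence markers was 6.82, against 5.07 to 5.79 on the other arrays of its group. Its mean of salicylate pathway genes was 6.57, against 7.19 to 7.42. Whether those differences contributed to its WRKY signals was not tested.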

How the results depend on the processing

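No called change of a member turned its direction under any alternative that gave a value. Differences of members that were not called, such as WRKY54 and WRKY70 in amiNaa10, WRKY38 on the arrays labelled amiNaa15 and WRKY28 under drought, changed sign when single arrays were left out. Leaving out each array in turn gave 3 to 9 called members in amiNaa10 (6 with all arrays), 3 to 9 on the arrays labelled amiNaa15 (5), 6 to 12 under drought (10), 16 to 21 for amiNaa10 against drought (18), 12 to 19 for the arrays labelled amiNaa15 against drought (17) and 0 between the knock-downs. The amiNaa10 count fell to 3 without amiNaa10 replicate 1, amiNaa10 replicate 2 or control replicate 3. The count for the arrays labelled amiNaa15 was 3 without its replicate 1, its replicate 2 or control replicate 3, and 9 without its replicate 3. The drought count was 6 without drought replicate 2, when no member was called higher. Tested against a 1.5-fold change with limma's treat, 0, 0, 3, 7 and 1 members were called in amiNaa10, the arrays labelled amiNaa15, drought, and the knock-downs against drought in the same order. With an unadjusted p there were 12 in amiNaa10, 9 on the arrays labelled amiNaa15 and 3 between the knock-downs. Without variance moderation 3 were called on the arrays labelled amiNaa15, and a fit of only the 2 groups called 6 under drought. Leaving out replicates 1 and 2 labelled amiNaa15 gave 0 calls against the control and 7 against drought, and leaving out 3 and 4 gave 8 against the control. The cause of these differences, beyond the fewer arrays or the stricter test, was not tested. Shares of all genes are given above for the unadjusted p and for the pairs left out. They are not printed for the other settings or for the block below. Counts in those settings do not tell a shift of the family from a shift of all genes.

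A fit with replicate block gave counts of 7, 4 and 10 against the control, 18 and 17 for the knock-downs against drought, and 0 between them. The block added WRKY55 in amiNaa10 (adjusted p = 0.0484, limma) and lost WRKY22 on the arrays labelled amiNaa15 (adjusted p = 0.0632). Arrays of the same number did not deviate together across genes (correlation of deviations -0.20 to 0.32, median 0.00), so the number is treated as a name only.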
